A study of Mus musculus with 8 samples.

Results

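The genes described here are the mouse MHC class II genes with Ciita and Cd74. Ciita is the class II transactivator, Cd74 the invariant chain, H2-Aa, H2-Ab1 and H2-Eb1 the chains of the surface class II molecules, H2-DMa, H2-DMb1 and H2-DMb2 the chains of the peptide editor H2-DM, and H2-Oa and H2-Ob those of its inhibitor H2-DO. They were picked by gene symbol, and all 10 were found among the 18125 genes listed in at least 1 library. On GRCm38, Ciita lies on chromosome 16 (10480014 to 10531064) and Cd74 on chromosome 18 (60803849 to 60812652). The other 8 lie together in the class II region of chromosome 17, from H2-Oa (start 34092379) to H2-Eb1 (end 34316674), and all 10 are protein-coding. The data are 8 RNA sequencing libraries of mouse macrophages, 1 per group. Peritoneal macrophages (PM) were elicited with 1 ml of 4% thioglycollate over 3 to 4 days. They came from Slc6a8-/y mice (KO, without the X-linked creatine transporter) or wild-type mice (WT), and were given IFN-gamma at 10 ng/mL for 12 hours or left untreated. Bone marrow-derived macrophages (BMDM) were grown with 10% M-CSF for 5 days from mice of both genotypes, and were given IL-4 at 10 ng/mL for 6 hours or left untreated. All mice were on the C57BL/6 background. The labels do not give the age of the mice, the number of animals behind a library, the cells in which Slc6a8 was deleted or whether libraries of a genotype share an animal. IFN-gamma was given only to PM and IL-4 only to BMDM, so the cytokine, the hours of exposure and the cell type cannot be told apart.

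Class II molecules carry peptides from endosomes to the surface of antigen-presenting cells, where CD4+ T cells read them. The invariant chain fills the peptide groove during assembly, H2-DM then exchanges its last fragment for a peptide, and H2-DO holds H2-DM back. Ciita does not bind DNA itself. It docks on a complex of RFX, CREB and NF-Y proteins bound to the X box and the Y box of class II, invariant chain and H2-DM promoters, and macrophages switch it on after IFN-gamma, in part through IRF1. IL-4, which signals through STAT6, is best known for raising class II in B cells.

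The boxes on which that complex sits are shown first, because the promoters of several members share them. RefSeq promoter windows (build GRCm38.p6, 250 bases before to 50 bases from a transcript start) were at hand for 7 of the 10 members, in 8 windows, since H2-DMa has 2 of them, both downstream of the RefSeq start of its gene (34119693). Ciita, Cd74 and H2-Ab1 had no window and are named only. The X box was searched on both strands as CTANNAACNNATG, a spelling settled after reading these windows, and the Y box as ATTGG. In the stretches that follow, each 80 bases long on the strand of its gene and lined up on the Y box, capitals mark complete matches to these boxes.
H2-Eb1 (chr17:34305753-34305832, + strand): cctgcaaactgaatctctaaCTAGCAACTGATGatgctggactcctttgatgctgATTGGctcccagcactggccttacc
H2-DMb1 (chr17:34153075-34153154, + strand): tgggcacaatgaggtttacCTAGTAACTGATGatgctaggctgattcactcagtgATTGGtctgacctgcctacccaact
H2-DMb2 (chr17:34145104-34145183, + strand): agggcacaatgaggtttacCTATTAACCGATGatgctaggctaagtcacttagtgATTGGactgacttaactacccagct
H2-Ob (chr17:34238793-34238872, + strand): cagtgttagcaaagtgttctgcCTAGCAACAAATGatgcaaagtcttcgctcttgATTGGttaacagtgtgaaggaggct
H2-Aa (chr17:34287847-34287926, - strand): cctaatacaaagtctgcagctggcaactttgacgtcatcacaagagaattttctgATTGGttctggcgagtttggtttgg
H2-Oa (chr17:34092281-34092360, + strand): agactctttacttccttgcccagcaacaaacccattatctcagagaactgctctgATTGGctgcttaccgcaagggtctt

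In H2-Eb1, H2-DMb1, H2-DMb2 and H2-Ob the X box lay upstream of the Y box, with 22, 23, 23 and 20 bases between them. The X box spelling was present in 48 of all 32851 windows in the RefSeq table (0.146%) and the Y box, a short and common motif, in 37.4% of them. An X box followed within 40 bases by a Y box on the same strand was found in 4 of the 32851 windows (0.012%), and these were the windows of those 4 members. The spelling was drawn from these windows, so this count describes them and tests nothing. H2-Aa and H2-Oa had the Y box without that X box spelling, and of the H2-DMa windows 1 had a Y box and 1 had neither box. TTCNNNNGAA, a motif for STAT6, the factor downstream of IL-4, was searched on both strands and occurred in 0 of the 8 windows and in 6.95% of all. A missing match says only that these letters are not in the window.

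**Figure D1:**
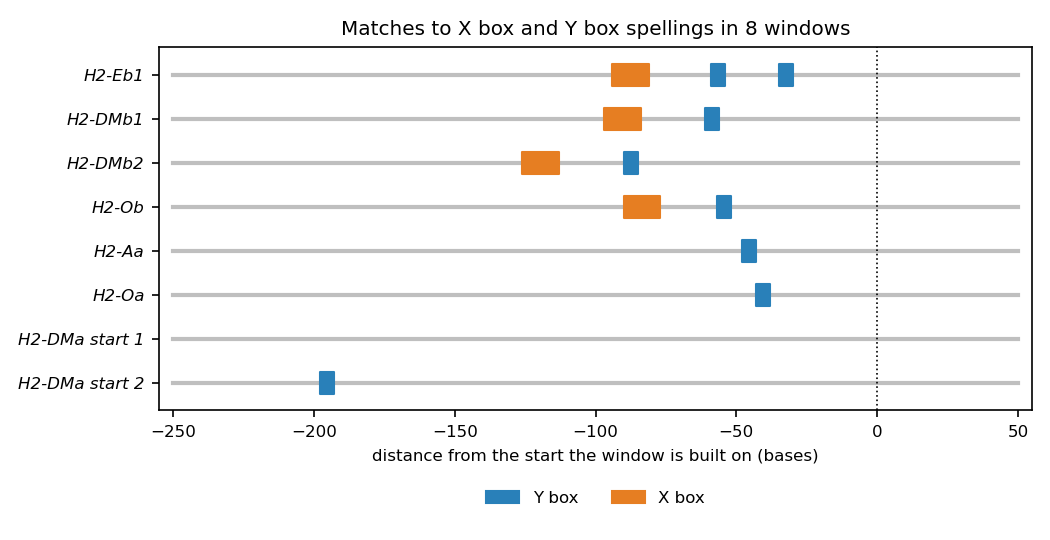
Matches to the X box and Y box spellings (coloured blocks) in the 8 promoter windows of 7 members, by distance in bases from the start each window is built on (dotted line at 0). H2-Eb1, H2-DMb1, H2-DMb2 and H2-Ob each show an X box with a Y box 20 to 23 bases downstream of it; the second Y box of H2-Eb1 lies on the other strand.

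Slc6a8, the deleted gene, was at 0.18 to 1.71 FPKM in the 4 KO libraries, against 39.5 to 163.54 FPKM in the 4 WT libraries. FPKM, the deposited unit, is fragments per kilobase of transcript scaled to all fragments counted. Total expected counts were 10812678 to 11065427 in PM and 20553654 to 21221526 in BMDM libraries. All 8 macrophage marker genes examined, such as Csf1r and Adgre1, were detected in every library. Markers of other cells that carry class II were looked at as lists of 9 (B cell) and 10 (dendritic cell) genes. B cell markers summed to 33.7 to 42.0 FPKM in PM, of which Cd22 made 28.4 to 36.9. In BMDM the B cell list summed to 6.34 to 7.35 FPKM, with 3 or 4 of its genes at 0. Dendritic cell markers summed to 20.6 (KO) and 39.1 FPKM (WT) in IFN-gamma-treated PM, against 2.67 (KO) and 3.01 FPKM (WT) in untreated PM. In BMDM they summed to 7.01 (KO) and 8.19 FPKM (WT) with IL-4, against 1.72 (KO) and 1.03 FPKM (WT) without. Clec9a in PM and Batf3 in both cell types made up most of this increase, and Flt3 was at 0 in all PM libraries. Xcr1 rose in PM by 1.19 on the log2 scale (SE 0.33, adjusted p = 0.0403 in edgeR). It stood at 0.73 (KO) and 0.36 FPKM (WT) with IFN-gamma, against 0.35 (KO) and 0.17 FPKM (WT) untreated. In BMDM Flt3 was at 0.73 (KO) and 0.44 FPKM (WT) with IL-4, against 0.15 (KO) and 0.06 FPKM (WT) without, and rose by 2.44 on the log2 scale (SE 0.33, adjusted p = 0.000582 in edgeR). Of the 10 dendritic cell markers, 3 (KO) and 2 (WT) were at 0 in IFN-gamma-treated PM, against 4 (KO) and 1 (WT) in untreated PM. Of 4 genes of monocyte-derived cells, Itgax, which dendritic cells also express, stood at 17.8 (KO) and 20.8 FPKM (WT) with IL-4, against 5.36 (KO) and 7.23 FPKM (WT) without, and rose by 1.66 (SE 0.07, adjusted p = 1.4e-07 in edgeR). Ccr2 rose with IFN-gamma by 2.90 and Ly6c2 by 3.51, both to at most 1.56 FPKM, and the list summed to 254 (KO) and 174 FPKM (WT) with IFN-gamma, against 305 (KO) and 228 FPKM (WT) untreated. In BMDM that sum was 38.3 (KO) and 36.7 FPKM (WT) with IL-4, against 28.3 (KO) and 28.9 FPKM (WT) without. Itgax alone carried this rise. Ccr2 fell with IL-4 by 0.23 on the log2 scale (SE 0.07, adjusted p = 0.0485 in edgeR). It stood at 20.4 (KO) and 15.5 FPKM (WT), against 22.0 (KO) and 21.0 FPKM (WT) without. Ly6c2 had a log2 change of -1.35 with IL-4 and was not called (adjusted p = 0.121 in edgeR). Genes of the macrophage, dendritic cell and monocyte-derived lists thus moved with the cytokines. Their part in the results on class II genes was not tested. Fewer cells of a type and less RNA per cell cannot be told apart in bulk samples.

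Most members shared an order of levels across the conditions. For 7 of them (Ciita, Cd74, H2-Aa, H2-Ab1, H2-Eb1, H2-DMa and H2-DMb1) the level was highest in IFN-gamma-treated PM, next in IL-4-treated BMDM, next in untreated BMDM and lowest in untreated PM. In these 7 no KO or WT library overlapped the neighbouring condition. Of the 10073 genes whose mean reached 1 FPKM in each cell type, 0.913% share this order, these 7 among them. Ciita passed that filter in PM only through its IFN-gamma libraries, so its top place was partly fixed by the filter. The share describes the order and tests nothing. H2-DMb2 differed from it only in that untreated PM and untreated BMDM overlapped. H2-Oa and H2-Ob overlapped between most neighbouring conditions. The FPKM of all 10 members summed to 4061.1 (KO) and 4286.3 (WT) in IFN-gamma-treated PM, against 162.8 (KO) and 191.5 (WT) in untreated PM. In BMDM the sum was 509.2 (KO) and 571.7 (WT) with IL-4, against 333.6 (KO) and 350.8 (WT) without it. The sum was thus far higher in IFN-gamma-treated PM than in IL-4-treated BMDM, and lower in untreated PM than in untreated BMDM. Levels were not scaled across the cell types beyond FPKM itself.

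**Figure D2:**
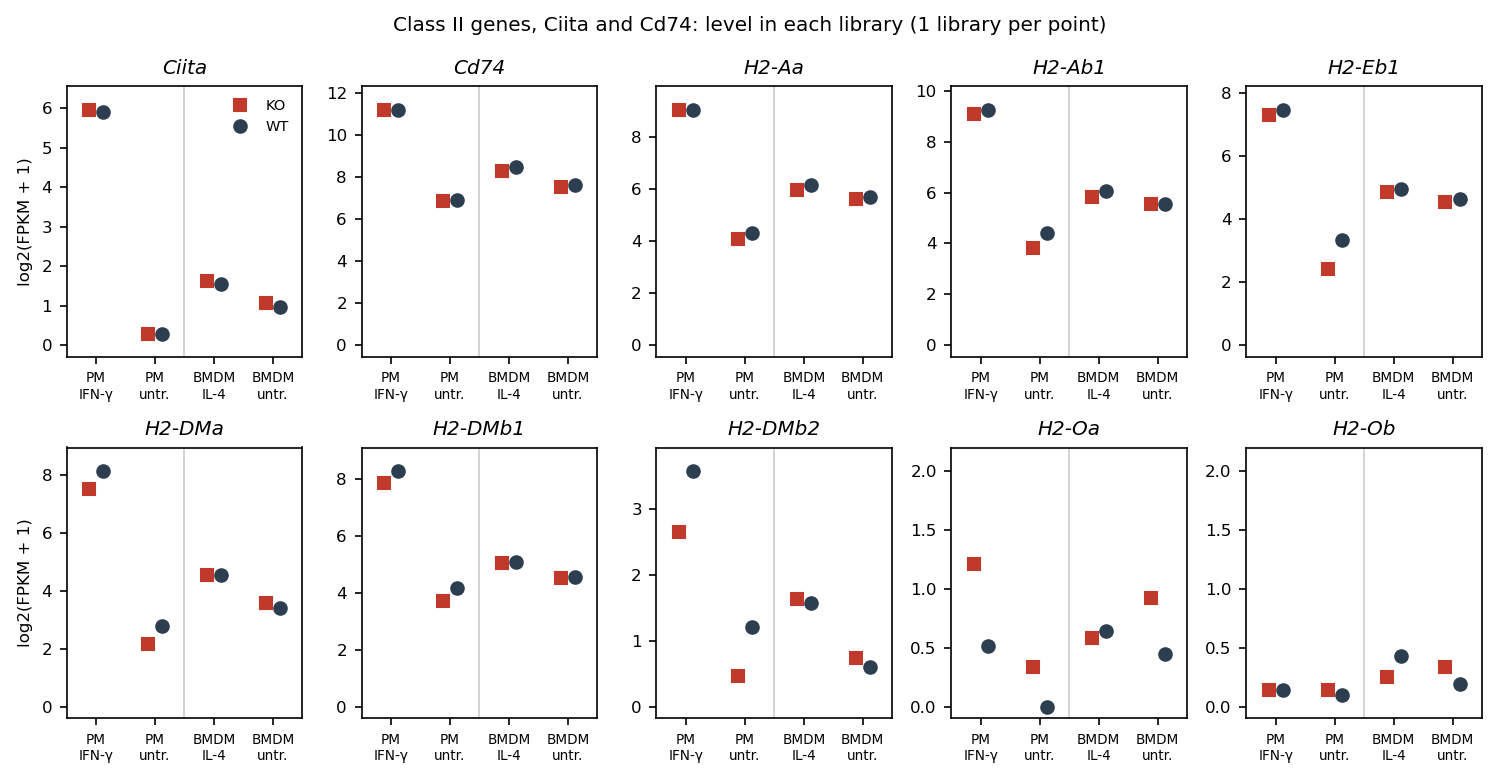
Level of each member in the 8 libraries as log2(FPKM + 1), with KO (red squares) left of WT (dark circles); 1 point is 1 library, and each panel has its own axis. Ciita reaches 61.6 (KO) and 58.9 FPKM (WT) in IFN-gamma-treated PM, against 0.21 FPKM in both untreated PM libraries, while H2-Oa and H2-Ob stay near 0 in all panels.

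Ciita, the switch of the pathway, was close to silent in untreated PM and abundant after IFN-gamma. It stood at 61.6 FPKM in KO and 58.9 FPKM in WT cells with IFN-gamma, against 0.21 FPKM in both untreated libraries. These values rest on 3610 (KO) and 3481 (WT) expected counts with IFN-gamma, against 12 counts in each untreated library (95% exact Poisson interval 6.2 to 21.0 counts). The FPKM was 294 times higher in KO cells (95% interval 171 to 580) and 281 times higher in WT cells (162 to 549). These and all other intervals of folds cover counting error only. The edgeR fit over both genotypes (quasi-likelihood test, Benjamini-Hochberg adjustment) gave 8.27 as the log2 change (SE 0.15, adjusted p = 7.74e-06), rank 24 of the 12052 genes tested. Its SE may be too small, because so few counts stand on the untreated side.

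The 7 class II and invariant chain genes that edgeR tested along with Ciita rose as well, by less. Cd74 stood at 2345 (KO) and 2302 FPKM (WT) with IFN-gamma, against 112.53 (KO) and 118.65 FPKM (WT) without, a log2 change of 4.42 (SE 0.11, adjusted p = 8.85e-06 in edgeR). H2-Aa, the A alpha chain, stood at 528 (KO) and 530 FPKM (WT) against 16.0 (KO) and 18.9 (WT) untreated, a log2 change of 5.02 (SE 0.13). H2-Ab1, the A beta chain, stood at 550 (KO) and 618 FPKM (WT) against 13.3 (KO) and 20.5 (WT) untreated, a log2 change of 5.23 (SE 0.17). The estimates of these partner chains lay close together. H2-Eb1, the E beta chain, reached 154 (KO) and 175 FPKM (WT) against 4.35 (KO) and 8.95 (WT) untreated, a log2 change of 4.77 (SE 0.23, adjusted p = 7.29e-05 in edgeR). Its partner gene H2-Ea was not listed in any table, and C57BL/6 mice are known to lack a working H2-Ea gene.

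Among the peptide editing genes, H2-DMa had the highest estimate. It stood at 183 (KO) and 279 FPKM (WT) with IFN-gamma, against 3.49 (KO) and 5.83 FPKM (WT) without, a log2 change of 5.73 (SE 0.13, adjusted p = 8.64e-06 in edgeR). H2-DMb1 stood at 233 (KO) and 312 FPKM (WT) against 12.2 (KO) and 17.0 FPKM (WT) untreated, a log2 change of 4.32 (SE 0.11, adjusted p = 1.02e-05 in edgeR). H2-DMb2 stayed low, at 5.27 (KO) and 10.9 FPKM (WT) against 0.38 (KO) and 1.31 FPKM (WT) untreated, with a log2 change of 3.35 (SE 0.35, adjusted p = 0.00112 in edgeR). H2-DMb2 cannot be read apart from H2-DMb1 with certainty. Its deposited transcript length of 786 bases is also shorter than its GENCODE transcript of 1424 bases, so that its FPKM would be lower on the longer one, while its log2 changes rest on counts. The expected counts of each were whole numbers, within 0.005, in 0 of 8 libraries, while their sum was whole in 8 of 8, so that reads were divided between them. The GENCODE transcripts of both genes are 95.3% identical over 1093 aligned bases, with a longest identical run of 221 bases, and H2-DMb2 took 1.34% to 4.43% of the counts of the pair. Summed, the pair rose by 4.29 on the log2 scale with IFN-gamma. H2-Ab1 and H2-Eb1 shared some reads too, with a whole sum in 7 of 8 libraries, and their sum rose by 5.09.

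H2-Oa and H2-Ob, which encode the inhibitor H2-DO, did not pass the count filter in PM. H2-Oa was at 1.31 (KO) and 0.43 FPKM (WT) with IFN-gamma, from 15 (KO) and 5 (WT) counts, against 0.26 FPKM (KO, 3 counts) and no counts (WT) untreated. The exact 95% Poisson intervals of the KO counts, which cover counting error only, just overlapped at 8.40 to 24.7 with IFN-gamma against 0.62 to 8.77 untreated. H2-Ob had 3 counts in each IFN-gamma library, against 3 (KO) and 2 (WT) untreated. Without the filter edgeR called neither, with a log2 change of 2.78 for H2-Oa (SE 0.90, adjusted p = 0.0591 in edgeR) and 0.34 for H2-Ob (SE 1.07, adjusted p = 0.866 in edgeR), estimates that lean on the counts at or near 0. DESeq2 did not call H2-Oa (adjusted p = 0.341) and gave H2-Ob no adjusted p. At this depth neither gene gave a call, although the counts of H2-Oa were higher with IFN-gamma in both genotypes.

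Over the list, 8 of 10 members passed the count filter in PM, and edgeR called all of these 8 higher with IFN-gamma, where 17.2% of the 12052 genes tested were called higher. Ciita and H2-DMb2 were so low without IFN-gamma that they entered the FPKM comparisons only through the treated libraries. Their place among the 2-fold changes below was thus partly fixed by that filter. H2-DMb2, at 3.2 (KO) and 10.8 (WT) expected counts untreated, would not have passed the count filter either without its treated libraries. Its edgeR call was therefore partly fixed as well. The median log2 change was 4.90 over the 8 members and -0.01 over all genes. On log2(FPKM + 1), 8 of 8 members were at least 2-fold higher in the KO pair and 8 of 8 in the WT pair, against 7.27% and 5.95% of all 10670 genes. The median over all genes was -0.107 in the KO pair as deposited and 0.005 after TMM scaling, a shift far below the changes of the members.

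IL-4 raised 8 of the 10 members in BMDM by smaller steps. Among these 8, H2-DMb2 had 10.7 (KO) and 8.4 (WT) expected counts untreated. It would not have passed the count filter or the mean of 1 FPKM without its IL-4 libraries, so its place was partly fixed by these filters. For edgeR, 12.0% of 12879 genes were called higher, and the median log2 change was 0.52 over the 10 members and 0 over all genes. Ciita stood at 2.07 (KO) and 1.91 FPKM (WT) with IL-4, against 1.08 (KO) and 0.95 FPKM (WT) without. The counts behind these values were 237 (KO) and 212 (WT) with IL-4, against 119 (KO) and 107 (WT) without. The fold was 1.92 in KO (95% interval 1.59 to 2.50) and 2.01 in WT cells (1.61 to 2.60), and the edgeR log2 change was 1.05 (SE 0.12, adjusted p = 0.0002). Cd74 stood at 305 (KO) and 347 FPKM (WT), against 181 (KO) and 197 FPKM (WT) untreated, a log2 change of 0.82 (SE 0.05, adjusted p = 1.74e-06 in edgeR). Both libraries with IL-4 lay above both without it for each of these genes. On log2(FPKM + 1), 0 of 8 members were at least 2-fold higher in the KO pair and 1, H2-DMa, in the WT pair, where 1.27% of 10906 genes were in each.

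The surface chain genes had the smallest estimates among the members called. H2-Aa stood at 61.9 (KO) and 69.3 FPKM (WT) with IL-4, against 47.9 (KO) and 50.2 FPKM (WT) without, a log2 change of 0.46 (SE 0.06, adjusted p = 0.00036 in edgeR). H2-Ab1 stood at 55.5 (KO) and 65.2 FPKM (WT) against 46.6 (KO) and 45.9 (WT) untreated, a log2 change of 0.42 (adjusted p = 0.00203 in edgeR). H2-Eb1 stood at 27.9 (KO) and 30.1 FPKM (WT) against 22.0 (KO) and 23.6 (WT) untreated, a log2 change of 0.39 (adjusted p = 0.00149 in edgeR). The untreated and treated libraries did not overlap, but the calls of H2-Ab1 and H2-Eb1 were less secure than that of H2-Aa. H2-Eb1 lost its call in DESeq2 (adjusted p = 0.0776), and H2-Ab1 lost it without the genotype term (adjusted p = 0.0534 in edgeR).

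H2-DMa again had a higher estimate than the surface chains. It stood at 22.2 (KO) and 22.3 FPKM (WT) with IL-4, against 11.0 (KO) and 9.58 FPKM (WT) without, a log2 change of 1.16 (SE 0.09, adjusted p = 9.44e-06 in edgeR). H2-DMb1 stood at 31.8 (KO) and 33.4 FPKM (WT), against 22.0 (KO) and 22.8 FPKM (WT) untreated, a log2 change of 0.58 (SE 0.07, adjusted p = 0.000207 in edgeR). H2-DMb2 was called with a log2 change of 1.82 (SE 0.35, adjusted p = 0.00447 in edgeR), at 2.08 (KO) and 1.96 FPKM (WT) against 0.66 (KO) and 0.52 FPKM (WT) untreated. DESeq2 gave H2-DMb2 no adjusted p, and the sum of both DMb genes rose by 0.60 only. H2-Oa had a log2 change of -0.21 (SE 0.46, adjusted p = 0.796 in edgeR) on 11 (KO) and 12 (WT) counts with IL-4, against 20 (KO) and 8 (WT) without. H2-Ob had one of 0.44 (SE 0.48, adjusted p = 0.579 in edgeR) on 11 (KO) and 19 (WT) counts with IL-4, against 15 (KO) and 8 (WT) untreated.

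**Figure D3:**
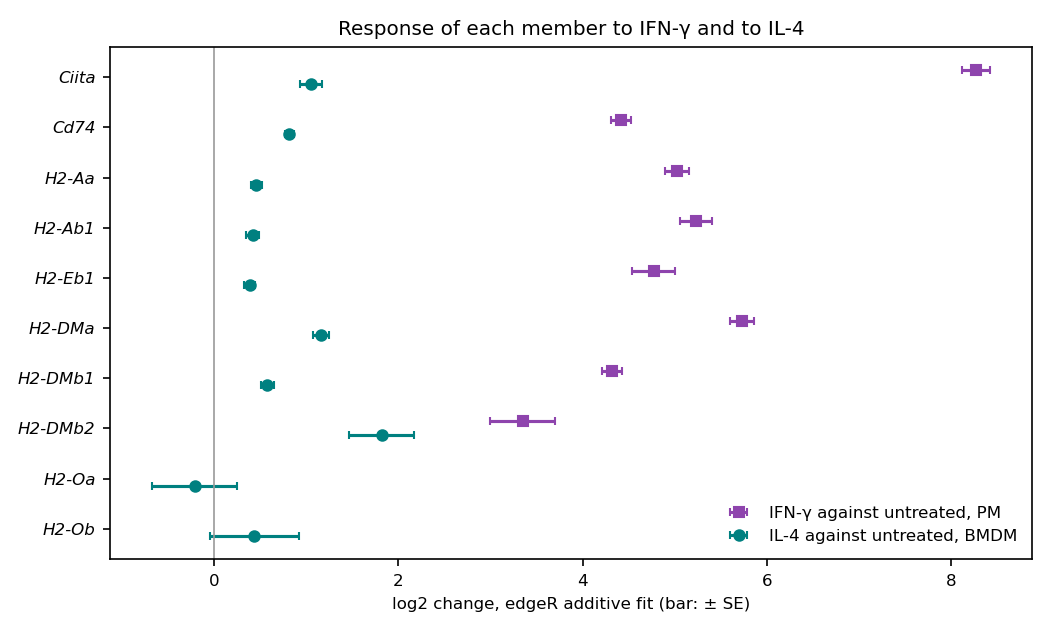
Log2 change of each member with IFN-gamma in PM (purple squares) and with IL-4 in BMDM (teal circles) in the edgeR additive fits, with bars of ± 1 SE; H2-Oa and H2-Ob did not pass the count filter in PM. The purple points run from 3.35 (H2-DMb2) to 8.27 (Ciita) and the teal ones from -0.21 (H2-Oa) to 1.82 (H2-DMb2).

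The difference between the responses was tested in a fit of all 8 libraries. It was positive and called for 7 of the 10 members, with 13.8% of 13340 genes called in that direction. Ciita rose more with IFN-gamma than with IL-4 by 7.25 on the log2 scale (SE 0.17, adjusted p = 4.51e-06 in edgeR). H2-Ab1 differed by 4.83, H2-Aa and H2-DMa by 4.59 each, H2-Eb1 by 4.39, H2-DMb1 by 3.76 and Cd74 by 3.62 (SE 0.10, adjusted p = 5.59e-06 in edgeR). H2-DMb2 differed by 1.55 (SE 0.53, adjusted p = 0.0763 in edgeR) and H2-Oa by 3.02 (SE 1.01, adjusted p = 0.0712 in edgeR), neither of which was called. H2-Ob differed by -0.08 (SE 1.19, adjusted p = 0.981 in edgeR). limma on log2(FPKM + 1) called H2-DMb2 (adjusted p = 0.00306). The test compares 12 hours of IFN-gamma in PM with 6 hours of IL-4 in BMDM, and it does not adjust for the starting levels of the members.

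Untreated BMDM stood above untreated PM for most members. Ciita was 5.14 times higher in BMDM than in PM among KO libraries (95% interval 2.83 to 10.2) and 4.52 times higher among WT libraries (2.50 to 9.10). H2-Aa was 3.00 times higher in KO and 2.65 times in WT, and Cd74 1.61 and 1.66 times. H2-Eb1 was 5.06 times higher in KO (4.01 to 6.46) and 2.63 times in WT (2.22 to 3.13). H2-DMb1 showed a smaller step, at 1.80 times in KO and 1.34 times in WT.

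The members changed their proportions to each other, in FPKM within the same library. H2-DMa stood at 0.785 (KO) and 0.893 (WT) of H2-DMb1 with IFN-gamma, against 0.285 (KO) and 0.343 (WT) in untreated PM. With IL-4 this ratio was 0.699 (KO) and 0.668 (WT), against 0.498 (KO) and 0.421 (WT) in untreated BMDM. The partner chains of H2-DM were thus closer to equal in all 4 stimulated libraries than in any untreated one. H2-Aa per H2-Ab1 varied less, from 0.857 to 1.20 over the 8 libraries. Cd74 was 3.79 to 7.05 times as high as H2-Aa, at 4.44 (KO) and 4.34 (WT) with IFN-gamma against 7.05 (KO) and 6.27 (WT) without. In BMDM it moved the other way, at 4.93 (KO) and 5.01 (WT) with IL-4 against 3.79 (KO) and 3.92 (WT) without. H2-Aa per Ciita was 8.57 (KO) and 8.99 (WT) with IFN-gamma, against 76.0 (KO) and 90.1 (WT) in untreated PM, where few Ciita reads were counted. In BMDM it was 29.9 (KO) and 36.3 (WT) with IL-4, against 44.3 (KO) and 52.8 (WT) without. These ratios are given without a test, since an exact permutation test of 2 stimulated against 2 untreated libraries cannot give a two-sided p below 0.333.

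Ciita also differed in the transcript length that the deposited tables weight by isoform. The annotation gives it 5 transcripts. The length was 5280.01 (KO) and 5284.22 bases (WT) with IFN-gamma, against 5167 bases in both untreated PM libraries. In BMDM it was 5353.24 (KO) and 5344.64 bases (WT) with IL-4, against 5167 (KO) and 5264.72 bases (WT) without. All 4 stimulated libraries lay above the untreated library of their own pair. Ciita is known to be transcribed from several promoters with separate first exons, but the deposited length does not show which transcripts were counted, and 12 counts in untreated PM hold little information on it. The length of Cd74, which has 2 transcripts, kept within 1274.34 to 1285.86 bases.

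The creatine transporter knockout changed no member past the threshold. In PM the edgeR genotype term called 0 of the 8 members tested, where it called 0.0249% of all genes higher and 0.0083% lower; DESeq2 and limma called 0. At an unadjusted p under 0.05, 4 members were lower in KO, where 7.08% of all genes were. In these 4, KO stood below WT in both the IFN-gamma and the untreated pair. The term was fitted on these same pairs, so this adds no support. H2-DMb1 and H2-DMb2 divide shared reads, so they are not independent here or in the later comparison of PM with BMDM. H2-DMa had a log2 change of -0.65 (SE 0.11, adjusted p = 0.18 in edgeR), H2-DMb1 of -0.45 (SE 0.10, adjusted p = 0.242 in edgeR), H2-DMb2 of -1.17 (SE 0.32, adjusted p = 0.279 in edgeR) and H2-Ab1 of -0.36 (SE 0.15, adjusted p = 0.356 in edgeR). Ciita gave 0.07 (SE 0.12) and Cd74 -0.04 (SE 0.10). The dendritic cell marker sum was also lower in the KO than in the WT IFN-gamma library, mainly through 2 genes. These were Clec9a at 14.1 (KO) and 30.7 FPKM (WT) and Batf3 at 4.77 (KO) and 7.23 FPKM (WT). Other genes of that list, all at low levels, were higher in KO there, namely Xcr1, Dpp4, Zbtb46, Ccr7 and Cd209a. The part of these markers in the H2-DM differences was not tested.

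By pair, the untreated PM held the wider gap for the E and A beta chains. On log2(FPKM + 1), 7 of 8 members were lower in KO than in WT untreated PM and 1, Ciita, was equal, with 42.2% of 10670 genes lower. The members' median was -0.52, and that of all genes 0.038. H2-Eb1 in untreated KO was at 0.486 of WT (95% interval 0.366 to 0.639) and H2-Ab1 at 0.648 (0.531 to 0.788). After IFN-gamma H2-Eb1 was at 0.878 (0.834 to 0.924) and H2-Ab1 at 0.890 (0.861 to 0.918). H2-DMa was at 0.655 with IFN-gamma (0.627 to 0.684) and 0.599 without (0.431 to 0.826). In the IFN-gamma pair 6 of 8 members were lower in KO, with 53.4% of all genes lower and a median of -0.18 over the members. The KO response to IFN-gamma therefore exceeded the WT response by 0.71 for H2-Eb1 and 0.42 for H2-Ab1 on log2(FPKM + 1), against 0.06 for Ciita and 0.10 for Cd74. With 1 library per group this excess has no test.

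In BMDM the genotype term called 0 of 10 members, with 1.51% of all genes called higher and 3.68% lower; DESeq2 and limma called 0. Cd74 alone had an unadjusted p under 0.05, with a log2 change of -0.15 (SE 0.05, adjusted p = 0.105 in edgeR), and 10.3% of all genes were lower in KO at that p, so that 1 of 10 members is no more than the background. It stood at 0.880 of WT with IL-4 (95% interval 0.854 to 0.907) and at 0.921 without (0.881 to 0.953). In the IL-4 pair 6 of 8 members were lower in KO, where 46.6% of all genes were, and in the untreated pair 4 of 8, where 51.2% were. The genotype effect in PM minus that in BMDM, a contrast added after seeing the data, called 0 of 10 members, where 0.09% of all genes were called higher and 0.0375% lower. At an unadjusted p under 0.05 it held 3 members, all negative, where 7.90% of all genes were negative, namely H2-DMa at -0.73 (adjusted p = 0.101 in edgeR), H2-DMb1 at -0.39 (adjusted p = 0.191 in edgeR) and H2-DMb2 at -1.34 (adjusted p = 0.232 in edgeR); DESeq2 and limma called 0.

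**Figure D4:**
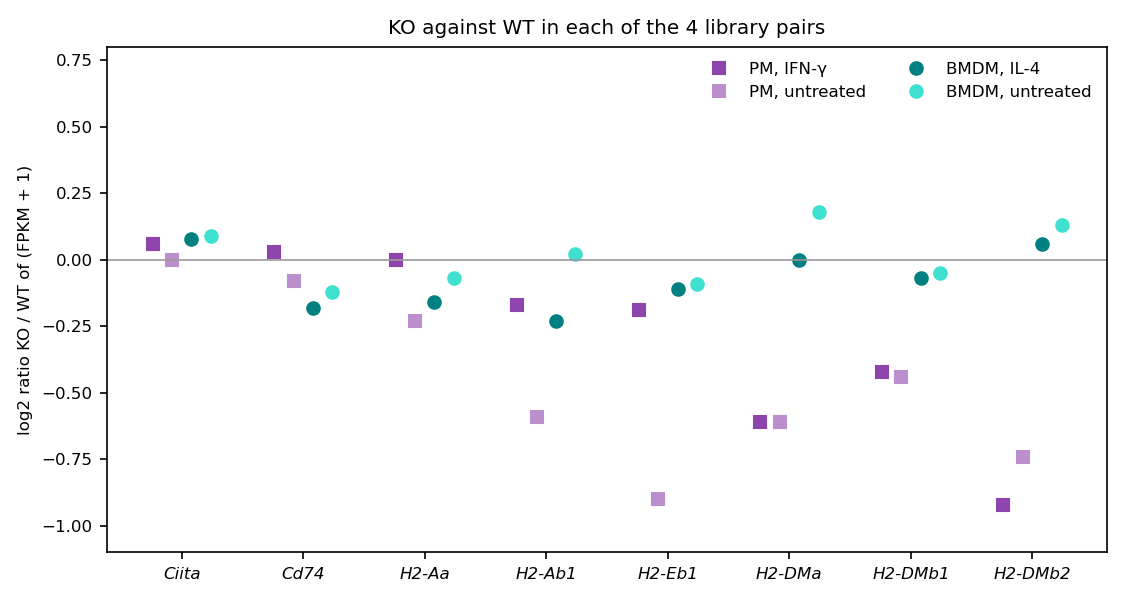
Log2 ratio of KO to WT, on FPKM + 1, for the 8 members whose mean reached 1 FPKM, in the IFN-gamma and untreated pairs of PM (dark and light squares) and the IL-4 and untreated pairs of BMDM (dark and light circles). H2-DMa, H2-DMb1 and H2-DMb2 lie below 0 in both PM pairs, and the untreated PM pair reaches -0.90 for H2-Eb1.

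Genes of the protein complex on which Ciita docks went both ways, by at most 1.76 on the log2 scale. Of 12 genes for RFX, NF-Y, CREB and their coactivators, edgeR called 3 higher and 1 lower with IFN-gamma and 3 higher and 1 lower with IL-4. Over all genes tested, 17.2% were called higher and 14.9% lower with IFN-gamma, and 12.0% higher and 9.23% lower with IL-4, shares against which this and the following lists can be read. Rfx5, the large RFX subunit, rose with IFN-gamma by 1.76 (SE 0.19, adjusted p = 0.00122 in edgeR), at 4.92 (KO) and 4.19 FPKM (WT) against 1.32 (KO) and 1.55 FPKM (WT) untreated. Creb1 rose by 1.19 and the coactivator Kat2b by 0.66, while Nfya fell by 0.35 on the log2 scale. With IL-4, Rfx5 had a log2 change of -0.17 (adjusted p = 0.269 in edgeR), and Nfya rose by 0.30. The medians of the list were 0.15 with IFN-gamma and -0.08 with IL-4.

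Upstream of Ciita, 5 of 9 genes of the IFN-gamma signal rose with IFN-gamma and 0 fell. Irf1, the factor that acts on the IFN-gamma-responsive Ciita promoter, rose by 5.68. The feedback inhibitor Socs1 rose by 5.43. The receptor genes Ifngr1 and Ifngr2 had log2 changes of -0.06 and -0.21 and were not called. With IL-4, 5 of these 9 rose and 0 fell, among them Socs1 by 3.92, Jak2 by 1.24 and Irf1 by 0.38 (SE 0.06, adjusted p = 0.00108 in edgeR). Of 8 genes of IL-4 signalling, 7 rose with IFN-gamma, such as Il4ra by 1.52. With IL-4 itself 1 rose and 1, Il13ra1, fell by 0.91 on the log2 scale. Jak1 and Socs1 stand on both lists.

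Other known regulators of Ciita transcription went both ways. Of 8 tested, 3 rose and 2 fell with IFN-gamma, and 2 rose and 3 fell with IL-4. Irf4 and Irf8, related factors of the interferon regulatory family, moved in opposite directions. Irf8 rose with IFN-gamma by 3.27, at 633 (KO) and 590 FPKM (WT) against 64.1 (KO) and 71.4 FPKM (WT) untreated, and fell with IL-4 by 0.25 on the log2 scale. Irf4 fell with IFN-gamma by 1.50 on the log2 scale and rose with IL-4 by 4.10 (SE 0.17, adjusted p = 1.94e-07 in edgeR), at 7.74 (KO) and 7.60 FPKM (WT) against 0.61 (KO) and 0.31 FPKM (WT) untreated. Prdm1, a repressor of Ciita in plasma cells, fell with IL-4 by 0.62 on the log2 scale.

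Genes of the endosomal proteases and reductases that prepare peptides and cut the invariant chain went both ways. Of 10, 5 rose and 3 fell with IFN-gamma, and 2 rose and 2 fell with IL-4. Over all genes, 12.0% were called higher and 9.23% lower with IL-4. Ctss, whose protease makes the late cut of the invariant chain, was among the most abundant genes, at 7634 (KO) and 6878 FPKM (WT) with IFN-gamma against 6904 (KO) and 6146 FPKM (WT) without. It was not called (log2 change 0.25, adjusted p = 0.0737 in edgeR). Ifi30, the lysosomal thiol reductase, rose by 1.82 with IFN-gamma and 0.36 with IL-4. Ctse rose by 3.24 with IFN-gamma, Sppl2a, which removes the last invariant chain stub, by 1.67, and Ctsl fell by 1.12 on the log2 scale. Among 7 genes of class II turnover and invariant chain signalling, 3 rose and 1 fell with IFN-gamma, and 2 rose and 1 fell with IL-4. Cd83, which keeps class II at the surface, rose by 3.03 and 0.42. Marchf1, whose ligase sends class II to degradation, had a log2 change of 0.65 with IFN-gamma and was not called (adjusted p = 0.129 in edgeR), at 3.80 (KO) and 10.2 FPKM (WT) against 4.16 (KO) and 4.66 FPKM (WT) untreated. Its KO library lay below its WT library by far more with IFN-gamma than without.

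Neighbours of the class II genes and genes of the class I pathway gave a frame for these sizes. Of the 5 tested neighbours in the class II region, all rose with IFN-gamma and 1 with IL-4. Tap1 rose by 4.74 and Psmb9 by 3.63 with IFN-gamma, and with IL-4 Psmb8 rose by 0.23. Of 5 class I genes, all rose with IFN-gamma, and with IL-4 Tapbp rose by 0.19 and Nlrc5 fell by 0.34 on the log2 scale. Nlrc5, the class I counterpart of Ciita, rose by 4.33 with IFN-gamma, against 8.27 for Ciita. The class I heavy chain gene H2-K1 rose by 1.45 and B2m by 1.41, against 5.02 for H2-Aa. Near-identical class I genes can share reads, so that H2-K1 and H2-D1 are uncertain. Of the genes for contact with T cells, 6 of 6 tested rose with IFN-gamma, and 3 of 7 rose and 1, Cd4, fell with IL-4. Cd40 rose by 8.18 with IFN-gamma and 0.99 with IL-4, and Pdcd1lg2, the gene of the inhibitory ligand PD-L2, by 6.25 and 5.54.

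**Figure D5:**
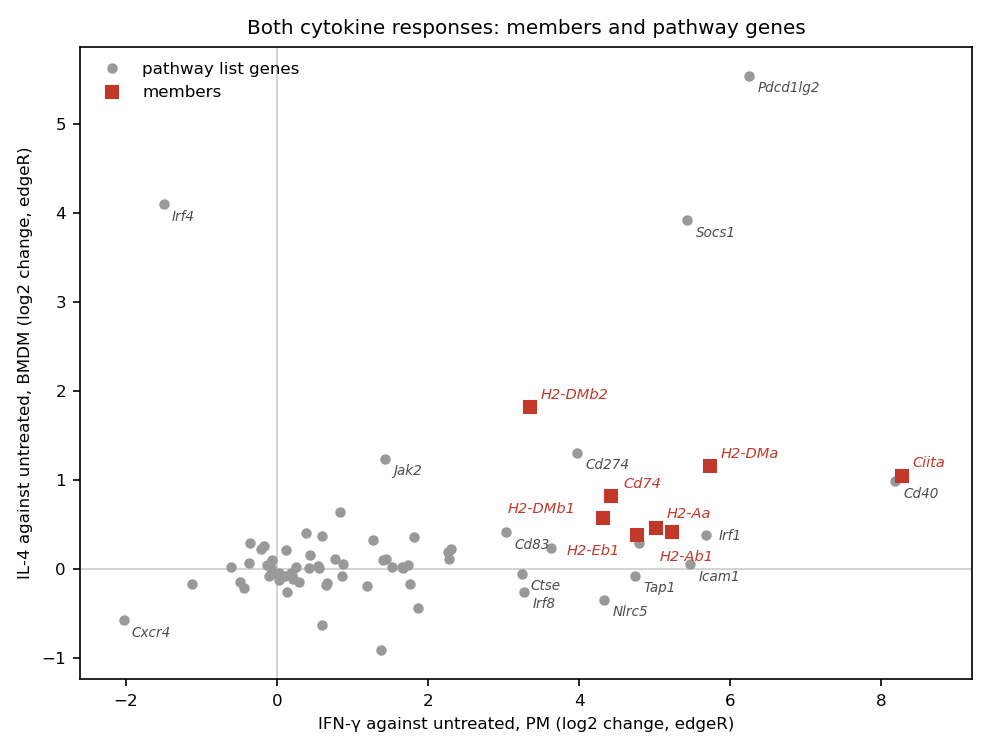
Log2 change with IFN-gamma in PM (x axis) against log2 change with IL-4 in BMDM (y axis), edgeR additive fits, for 8 members (red squares) and the genes of the pathway lists (grey circles). The members lie between 3.35 and 8.27 on the x axis and between 0.39 and 1.82 on the y axis; Irf4 is at -1.50 and 4.10.

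The genes nearest to 3 members were sought by the smallest root mean square difference over 4 log2(FPKM + 1) responses, IFN-gamma and IL-4 in each genotype, among 10073 genes. For Ciita these were Irf1 (0.22), Ly6a (0.39), Zbp1 (0.42), Il18bp (0.46) and Gm12250 (0.47), and the closest member was H2-DMa (0.41). For Cd74 the closest member, H2-DMb1 (0.23), was nearer than any gene outside the list, of which Gm4951 and Gm1966 (0.39 each), Cdc42ep2 (0.42), Cd274 (0.47) and Ralgds (0.51) came next. For H2-DMa they were Ralgds (0.29), Fgl2 (0.38), Irf1 (0.53), Gvin1 (0.62) and Ly6a (0.65). With 4 responses from 8 libraries, these distances describe likeness and have no test. The pseudocount of 1 FPKM shortens the Ciita response, which counts as 5.69 (KO) and 5.63 (WT) here. In edgeR the log2 change with IFN-gamma was 8.27 for Ciita and 5.68 for Irf1, so the nearness of Irf1 to Ciita depends on this scale.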

How the data were processed

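Total RNA of 8 macrophage cultures was sequenced, 1 library per group, grouped by the deposited labels. The deposited tables give per gene an RSEM-style expected count, an FPKM value and a transcript length. Per the submitters' processing notes, Bowtie2 2.2.5, RSEM and mm10 were used; the sources used here give no RSEM version. The deposited expected counts were rounded to whole numbers for testing, and the FPKM values deposited by the authors were used unscaled. A gene not listed in a library was set to 0.

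Expected counts were fitted with edgeR 4.0.16 in R 4.3.3 (TMM, filterByExpr, quasi-likelihood test, Benjamini-Hochberg adjusted p under 0.05 over all genes tested). Each cell type had an additive fit of stimulus and genotype on 4 libraries, with 1 residual degree of freedom, so that the other genotype stands in for a replicate; the comparison of the cytokines used 8 libraries and 2 residual degrees. The p-values measure spread between libraries that may share animals. Any dependence of the response on genotype enters the residual. The SE was taken as the size of the log2 change over the square root of F. The common biological variation coefficient reached 10.39% for PM and 4.57% for BMDM. Pairs of libraries were compared without a test as log2(FPKM + 1), for genes whose mean reached 1 FPKM in that cell type, a scale that understates changes of low genes. Intervals are 95% exact binomial (folds) or Poisson (counts), and cover counting error only.

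Gene coordinates and promoter windows are from RefSeq on GRCm38.p6, and transcript identity is from GENCODE. The alternatives were RLE scaling, no filter, DESeq2 1.42.0, limma 3.58.1 on log2(FPKM + 1), no genotype term, a pseudocount of 0.1, TMM-scaled FPKM and sums of genes that share reads. The fits were tested on simulated data, with a common spread for all genes and changes set only in genes with higher counts. That does not cover members with few counts, and no result here rests on it. All 10 members are named; from 9 pathway lists, up to 4 called genes with the largest change in a comparison and genes whose role bears on a member are named. A gene of the B cell list, a gene of the IFN-gamma list and a motif are not reported here and were left out of the counts. The members and lists were chosen with earlier results of these data known. Other computing used Python 3.11.15.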

Additional observations from a re-analysis of the deposited data

Results flagged for a closer look

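For H2-DMb2 the KO library lay on the other side of its WT library in BMDM than in PM, but neither genotype term passed the test. It was lower in KO than in WT in both PM pairs, at 5.27 FPKM (KO) against 10.9 FPKM (WT) with IFN-gamma and 0.38 FPKM (KO) against 1.31 FPKM (WT) untreated. In BMDM it stood at 2.08 FPKM (KO) against 1.96 FPKM (WT) with IL-4 and 0.66 FPKM (KO) against 0.52 FPKM (WT) untreated. The counting intervals of these BMDM folds span 1, from 0.634 to 1.79 with IL-4 and from 0.503 to 3.93 untreated, so BMDM give no direction. The genotype terms were -1.17 in PM (SE 0.32, adjusted p = 0.279 in edgeR) and 0.18 in BMDM (SE 0.33, adjusted p = 0.86 in edgeR). The genotype effect in PM minus that in BMDM was -1.34 on the log2 scale (SE 0.43, adjusted p = 0.232 in edgeR) and was not called. The value rests on 3.2 to 91.7 expected counts, divided from reads shared with H2-DMb1.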

How the results depend on the processing

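No paired analysis was possible because every group holds 1 replicate. No group has a second library, so none could be left out. With IFN-gamma, edgeR with RLE scaling, without the filter or without the genotype term, DESeq2 and limma each called 8 members higher and 0 lower, as in the edgeR fit reported. With IL-4 the calls were 8 with RLE scaling, without the filter and in limma, 7 without the genotype term and 6 in DESeq2. The difference between the responses had 7 calls in each of these except limma, with 8. Summing H2-DMb1 with H2-DMb2 and H2-Ab1 with H2-Eb1 left fewer entries to test. Of these, 6 of 6 were called with IFN-gamma, 6 of 8 with IL-4 and 6 of 8 for the difference, and no called entry lost its call. The alternatives for the genotype terms called 0 members. With a pseudocount of 0.1, 2 members were at least 2-fold higher with IL-4 in KO and 2 in WT, against 0 and 1; 2 were at least 2-fold lower in KO than WT untreated PM, against 0, and 1 in the IFN-gamma pair, against 0. The smaller pseudocount leaves ratios of low genes wider by construction. The genotype estimate of H2-Ob in BMDM was -0.07 in edgeR and 0.0332 in DESeq2, and that of H2-Aa in PM minus BMDM 0.02 in edgeR and -0.00418 in limma; the cause was not tested. Depth limits H2-Oa and H2-Ob, with 0 to 20 counts per library, and Ciita in untreated PM.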
